A study of Bos taurus with 15 samples.

Results

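FLVCR2 is a membrane transporter of the FLVCR family, discussed as a carrier of heme and of choline, and it is needed for blood vessel growth in the developing central nervous system. Heme is the iron-containing group of hemoglobin, cytochromes and many enzymes. Cells make it in a chain of reactions, and succinylacetone blocks an early one by inhibiting aminolevulinate dehydratase. The genes described here are the 53 that moved with FLVCR2 siRNA and were flat with succinylacetone, of 27607 cattle gene IDs counted. Of these, 45 rose and 8 fell with the siRNA.

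The genes were chosen on the measured values of both treatments. CPM is the count of a gene per 1000000 counts of its library. A gene needed a mean CPM of 5 or more in each of the 4 groups, which 9727 genes had. Its log2 ratio of mean CPM with FLVCR2 siRNA to mean CPM with scrambled siRNA had to be at least 0.3 in size, with no overlap between the libraries of these groups. Its log2 ratio with succinylacetone had to stay within 0.1 of 0. All values of these contrasts in the same libraries are therefore descriptions of the chosen genes. Where counts of genes passing a test across all genes are given, they support nothing about the chosen genes.

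Retinal endothelial cells of cattle, which form the inner wall of vessels, were sequenced as polyA RNA in 2 experiments: control (4 libraries) with succinylacetone (4), and scrambled siRNA (4) with FLVCR2 siRNA (3). No dose, time, passage or genetic change is given in the labels, and they do not state whether replicates were separate cultures, so the spread between replicates may be technical. The treatment labels of FLVCR2 siRNA replicates 2 and 3 read siFLVCR3 and siFLVCR4; they were kept in the group by their titles and by the design text, which names FLVCR2 alone. Libraries held 18842196 to 34754170 counts. The files give Ensembl IDs without names, and 0 of the 27607 IDs were found in the reference table. FLVCR2 itself, markers of endothelial and other cell types and gene lists known by symbol were thus not analysed here, and only 2 IDs that rose and 2 that fell are printed.

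The steps of the choice show how few genes remained. Among the 9727 genes, the FLVCR2 siRNA libraries lay entirely above the scrambled libraries in 869 (8.93%) and entirely below in 344 (3.54%). A log2 change of at least 0.3 left 186 rises and 49 falls. Of these, 45 rises and 8 falls were within 0.1 with succinylacetone, which held for 4136 of the 9727 genes. Rises outnumbered falls at each step with all libraries in, but the balance varied with the siRNA or scrambled library left out. There were 61 rises and 13 falls without FLVCR2 siRNA replicate 1, 55 and 14 without replicate 2, and 60 and 35 without replicate 3. For scrambled siRNA there were 53 and 12 without replicate 1, and 52 and 26 without replicate 2. There were 54 and 11 without scrambled replicate 3, and 64 and 11 without scrambled replicate 4. Without the libraries labelled siFLVCR3 and siFLVCR4, rises no longer outnumbered falls. That leaves a single FLVCR2 siRNA library, which separates easily from the scrambled group, so nothing is read from it.

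**Figure D1:**
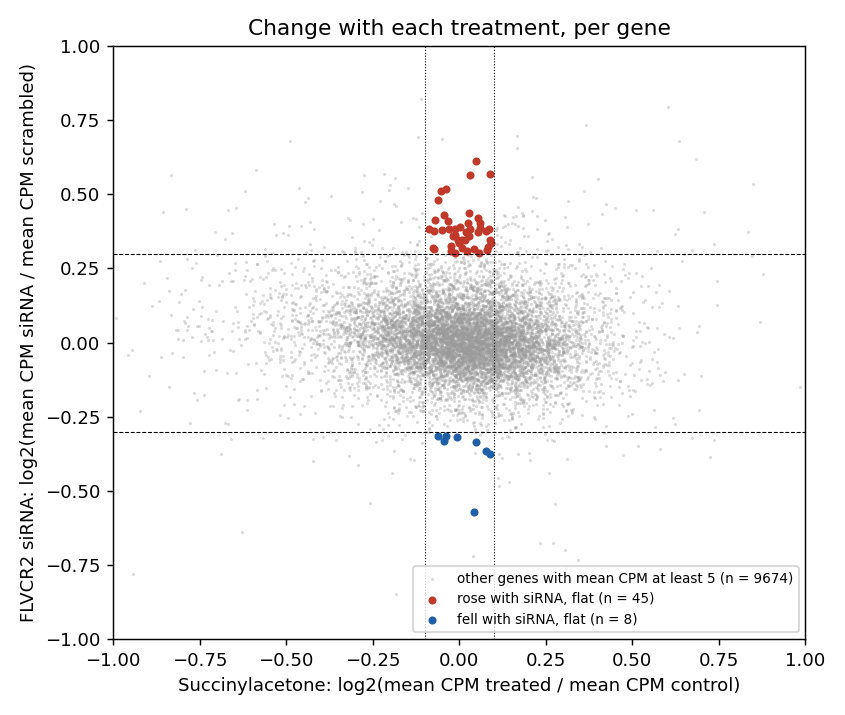
Each point is a gene whose mean CPM reached 5 in each group, placed by its log2 change with succinylacetone (x axis) and with FLVCR2 siRNA (y axis); dashed lines mark 0.3 and dotted lines 0.1 on either side of 0, and 21 genes lie beyond the axes. The 45 rises (red) and 8 falls (blue) sit in the narrow central column; grey points past the dashed lines inside that column had overlapping groups.

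The rises were small and similar in size. Their log2 changes ran from 0.30 to 0.61 with a median of 0.38, or 1.30-fold. Of the 45, 17 lay below 0.35, 15 between 0.35 and 0.4, 8 between 0.4 and 0.5, and 5 above 0.5. The falls ran from -0.57 to -0.31 with a median of -0.33, and 7 of the 8 were smaller in size than 0.4. Over all 9727 genes the median log2 change with the siRNA was 0.01. The rise nearest to the limit inside it was 0.303 and the gene nearest outside it 0.297; for falls these values were -0.31 and -0.29. The highest scrambled library and the lowest FLVCR2 siRNA library of a rising gene were between 1.02-fold and 1.31-fold apart, with a median of 1.12-fold. A further 9 genes past 0.3 in each direction were flat with succinylacetone but had overlapping siRNA groups.

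Within the chosen rises the genes were either weakly or strongly expressed, with few in between. With all 9727 genes in 4 equal bins of mean level, 17 rises lay in the bottom bin (mean below 17.0 CPM) and 19 in the top bin (above 85.3 CPM). Only 2 lay in the second and 7 in the third. The falls were mostly weakly expressed genes, with 5 of 8 in the bottom bin and 1 in each of the others. The smallest count behind any value was 86 reads for a rise and 120 for a fall. The rule fixed only the floor of 5 CPM, though separation of the groups also depends on precision, which rises with the level.

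ENSBTAG00000050974 had the largest rise. With scrambled siRNA it stood at 5.62, 7.01, 5.60 and 5.80 CPM in replicates 1 to 4, and with FLVCR2 siRNA at 7.86, 10.4 and 9.27 CPM. Every FLVCR2 siRNA library lay above every scrambled library, with replicate 1 the nearest to them. The means were 6.01 ± 0.671 (SD, n = 4) and 9.19 ± 1.29 CPM (SD, n = 3), a log2 ratio of 0.61 or 1.53-fold. Without the libraries labelled siFLVCR3 and siFLVCR4 the log2 ratio was 0.39. In the other experiment it stood at 8.86, 7.53, 8.0 and 9.52 CPM in control and at 8.07, 9.02, 8.55 and 9.46 CPM with succinylacetone. These groups overlapped, and their means of 8.48 ± 0.883 and 8.77 ± 0.600 CPM (SD, n = 4 each) differed by 0.05 on the log2 scale. Without control replicate 4 that difference was 0.110, just outside the limit, so its place among the flat genes rests on that library. The counts behind these levels were 107 to 293 reads per library.

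ENSBTAG00000010452 was the most abundant of the rising genes. With scrambled siRNA it stood at 801, 819.7, 755 and 766 CPM, and with FLVCR2 siRNA at 1003, 978 and 967 CPM. The groups were clearly apart and each was tight, at 785 ± 30.3 (SD, n = 4) and 982 ± 18.3 CPM (SD, n = 3), a log2 ratio of 0.32. Control libraries held 887, 913, 875 and 956 CPM and succinylacetone libraries 951, 991, 933 and 975 CPM, with overlap between them and a log2 ratio of 0.08. Without control replicate 4 this ratio was 0.110, past the limit, as for the gene above.

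ENSBTAG00000021526 had the largest fall. It stood at 26.1, 28.0, 30.1 and 25.8 CPM with scrambled siRNA and at 15.7, 18.9 and 20.9 CPM with FLVCR2 siRNA. The lowest scrambled library was above the highest FLVCR2 siRNA library, and the means were 27.5 ± 2.0 (SD, n = 4) and 18.5 ± 2.61 CPM (SD, n = 3), a log2 ratio of -0.57. Without the libraries labelled siFLVCR3 and siFLVCR4 it was -0.80. Control stood at 34.0, 33.6, 36.0 and 31.8 CPM and succinylacetone at 36.5, 34.9, 33.9 and 34.1 CPM. These overlapped, with a log2 ratio of 0.04, and all 8 lay above both siRNA groups. It was the only fall that met the rule with any single one of the 15 libraries left out.

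ENSBTAG00000004855 was the most abundant of the falling genes. It stood at 186, 172, 192 and 189 CPM with scrambled siRNA and at 139.6, 146 and 159 CPM with FLVCR2 siRNA, a log2 ratio of -0.32. The groups did not overlap, but FLVCR2 siRNA replicate 3 came near the lowest scrambled library, and without FLVCR2 siRNA replicate 1 the log2 ratio was -0.28, short of the limit. Control stood at 182, 169, 161 and 153 CPM, and its range took in values of both siRNA groups. Succinylacetone libraries held 170.2, 161, 169 and 160.5 CPM, a log2 ratio to control of -0.01.

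**Figure D2:**
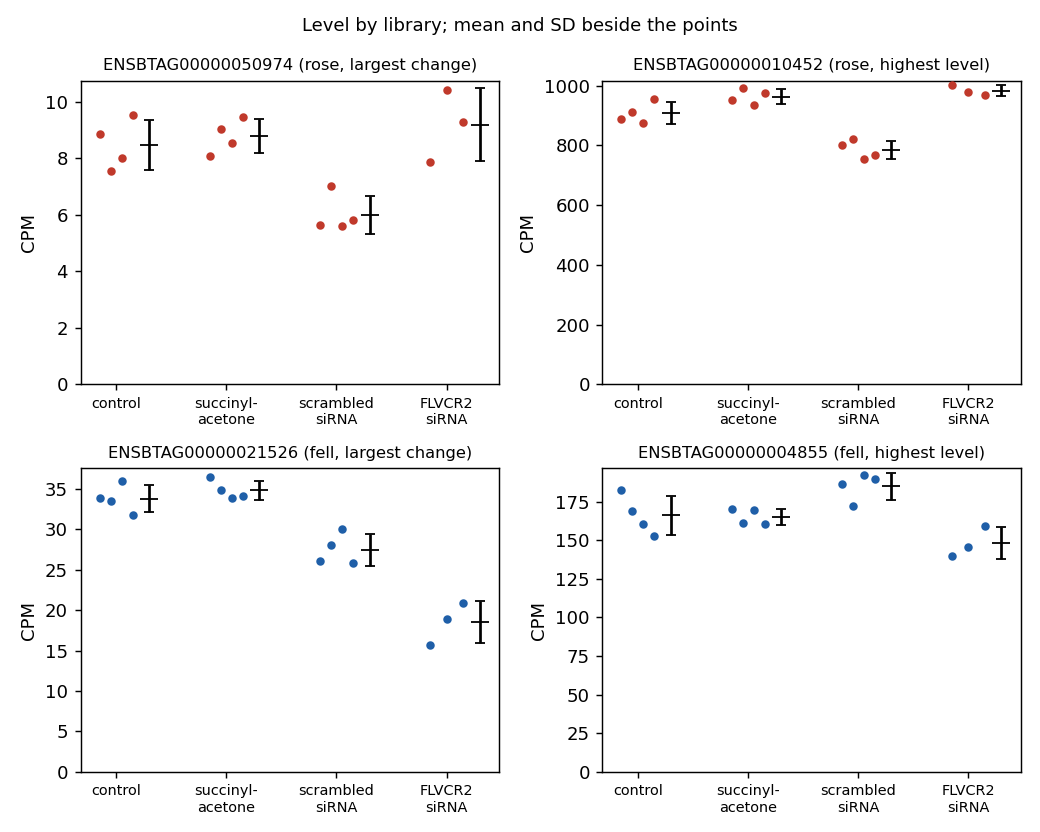
CPM of the 4 printed gene IDs, 1 panel each, by group (x axis); points are libraries in replicate order, and the bar beside them is the mean with its SD. In each panel the FLVCR2 siRNA points lie apart from the scrambled points, while control and succinylacetone points overlap.

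Likeness of pattern was measured as Pearson r of log2(CPM + 1) over the 15 libraries, with 9726 other genes each. Of the 3 genes most like ENSBTAG00000050974 (r of 0.860 to 0.881), 2 were themselves among the 53, and of the 3 most like ENSBTAG00000010452 (0.923 to 0.951), 1 was. For ENSBTAG00000021526 (0.853 to 0.860) and ENSBTAG00000004855 (0.796 to 0.854) none was. These values take in the difference between the experiments and are given as a description.

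Summed over the 45 rising genes, the level was 5823, 5800, 5847 and 5949 CPM in the scrambled libraries and 7448, 7538 and 7548 CPM in the FLVCR2 siRNA libraries. Abundant genes dominate such a sum, so each gene was also set relative to its own scrambled mean. The median log2 value over the 45 genes lay between -0.03 and 0.03 in the scrambled libraries and at 0.35, 0.37 and 0.37 in FLVCR2 siRNA replicates 1 to 3. The rule required each FLVCR2 siRNA library to lie beyond every scrambled library. These medians are thus largely set by the choice, and nothing is read from their closeness. Replicate 1, the only library whose treatment label names FLVCR2, was nearest to the scrambled group for 20 of the 45 genes and farthest from it for 16. Replicate 2 was nearest for 8 and farthest for 16, and replicate 3 nearest for 17 and farthest for 13. For the 8 falling genes the summed level was 329.8, 305, 328 and 316 CPM in the scrambled libraries and 243, 247 and 265 CPM in the FLVCR2 siRNA libraries, and the medians of the latter lay between -0.38 and -0.36.

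**Figure D3:**
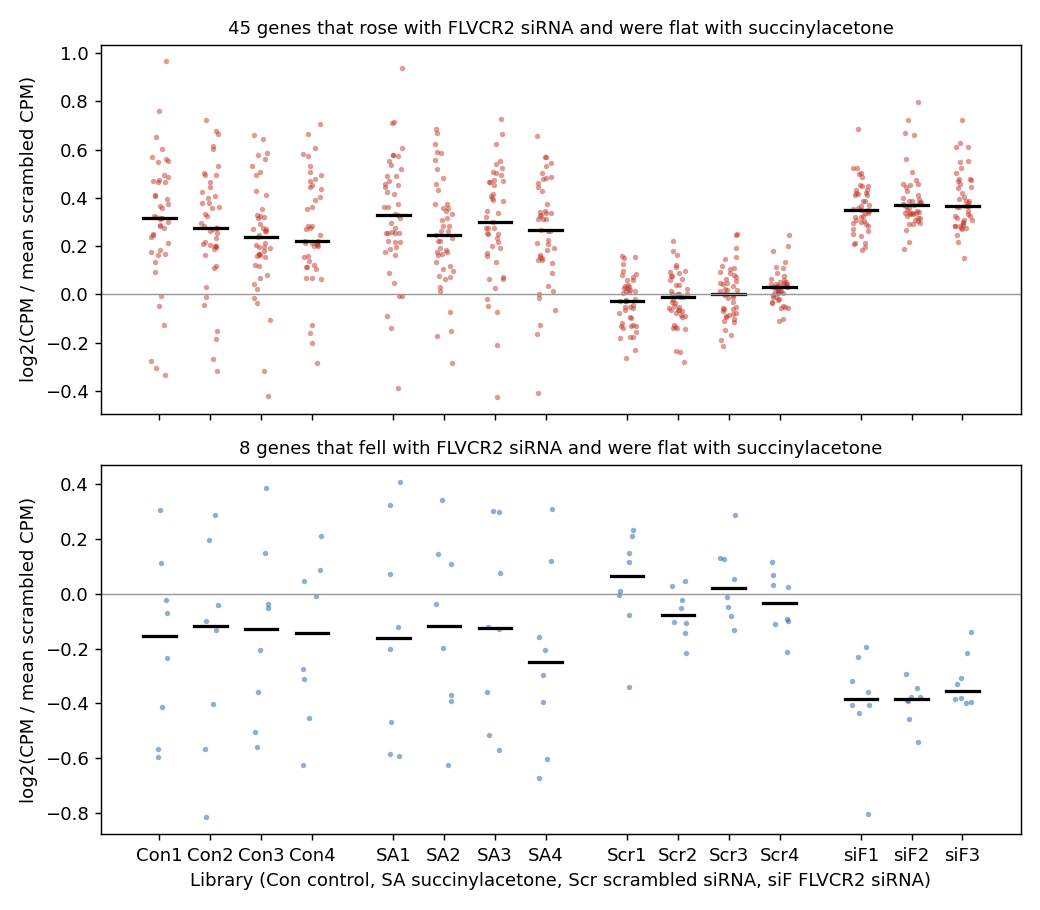
Level of each rising gene (top, 45 points per library) and falling gene (bottom, 8 points) as log2 of its CPM over its own mean in scrambled siRNA, by library (x axis); black lines are medians. FLVCR2 siRNA medians lie at 0.35 to 0.37 for the rises and -0.38 to -0.36 for the falls, and control and succinylacetone values spread widely.

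In a fit across all genes, 30 of the 45 rises passed at an adjusted p under 0.05 (edgeR's quasi-likelihood test with Benjamini-Hochberg adjustment), where 1.35% of 12976 genes tested passed as rises. Of the 8 falls, 3 passed, where 0.432% of all genes passed as falls. The test used the contrast on which the genes were chosen, so nothing is read from these shares. The counts depended on 1 library: without FLVCR2 siRNA replicate 2, 16 rises and 1 fall passed. With any other single library left out, 26 to 30 rises and 2 or 3 falls passed. The standard error of the log2 change had a median of 0.0746 for rises and 0.0986 for falls.

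Libraries that took no part in a choice of genes give values that this choice did not use. The rule and its limits stayed the same, and they were taken up with earlier results of these data known. One FLVCR2 siRNA and 1 scrambled library were set aside, genes were chosen by the same rule on the others, and the log2 ratio was read in the pair set aside, for all 12 pairs. Because fewer libraries make separation easier, 56 to 94 genes were then chosen as rises and 15 to 67 as falls. Only 31 to 43 of the chosen rises and 3 to 8 of the chosen falls were among the 53 genes. The values below thus describe genes that the rule picks from fewer libraries, and not the 53 alone. Genes chosen as rises kept part of their change. Their median was 0.36 in the libraries used (median over the pairs) and 0.24 in the pair set aside, from 0.13 to 0.33, above 0 in 12 of 12 pairs. Over all genes with a mean CPM of 5 or more in each group, the median in the same pairs was 0.01, from -0.04 to 0.08. A median of 85.2% of the genes chosen as rises were higher in the set-aside FLVCR2 siRNA library (68.1% to 96.4%), against 52.2% of all these genes.

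Genes chosen as falls kept little of theirs. Their median was -0.35 in the libraries used and -0.07 in the pair set aside, from -0.17 to 0.09, and below 0 in 10 of 12 pairs. Both pairs above 0 had FLVCR2 siRNA replicate 3 set aside, and in them the median over all genes was above 0 too: the falls had 0.02 and 0.09 where all genes had 0.03 and 0.08. A median of 58.6% of these genes were lower in the set-aside FLVCR2 siRNA library (31.3% to 73.3%), against 47.8% of all genes. The pairs share libraries, so no test was made over them.

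These values differed with the level of the genes, though the difference was not tested. Genes chosen as rises at or above the median level of 36.6 CPM kept 0.30 of 0.35 (0.20 to 0.37 over the pairs), and 96.7% of them were higher in the set-aside library, against 54.8% of all genes at that level. Those below that level kept 0.16 of 0.37 (0.05 to 0.26), and 74.6% were higher, against 49.8% of all genes there. Of the 45 rises, 26 lie above this level and 19 below it. Genes chosen as falls below it kept -0.04 of -0.35, and between 1 and 6 falls per pair lay above it, with a median of -0.14.

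**Figure D4:**
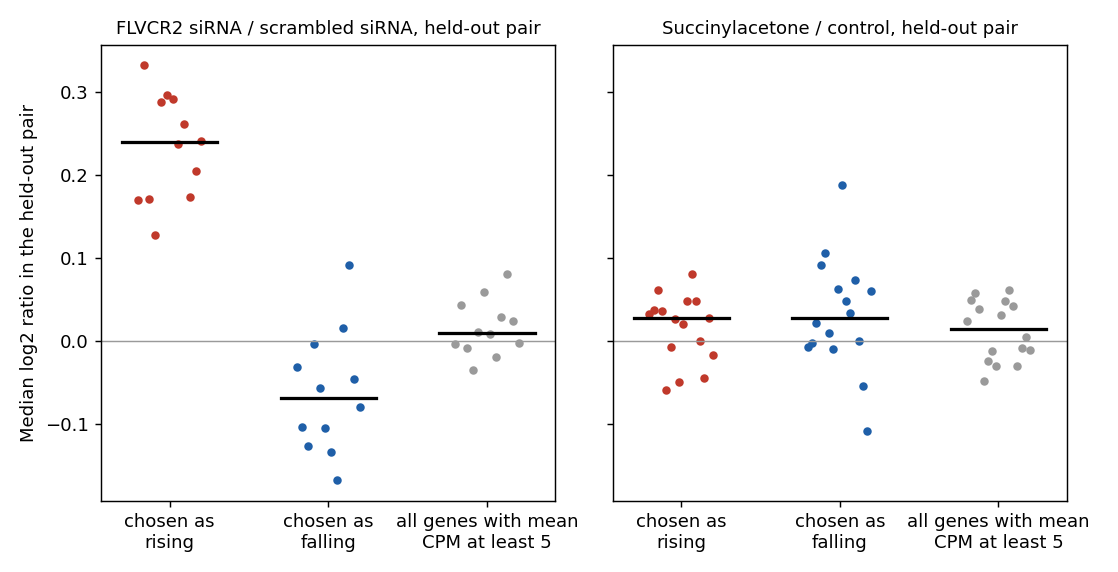
Median log2 ratio (y axis) of genes chosen without 1 treated and 1 control library, read in that pair; each point is 1 of 12 pairs for the siRNA (left) or 1 of 16 for succinylacetone (right), and black lines are medians over pairs. Genes chosen as rises lie at 0.13 to 0.33 on the left, genes chosen as falls at -0.17 to 0.09, and on the right each of these sets has a median of 0.03.

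With succinylacetone the rises were spread on either side of 0: 26 were higher and 19 lower, with a median log2 change of 0.01, and the falls were divided 4 and 4. The genes were chosen to be flat in these libraries, so the following counts are set by the choice and nothing is read from them. Succinylacetone libraries separated from control in 0 of the 53 genes, in 1.81% of the 4136 flat genes and in 30% of the 9727. By edgeR's test at an adjusted p under 0.05, 0 of 53 passed, where 29.4% of 12727 genes tested and 0.774% of the flat genes did; at an unadjusted p under 0.05, 1 rise and 0 falls passed, and DESeq2 called 0. Without control replicate 3, 1 rise passed, and without succinylacetone replicate 2, 2 rises did.

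The precision of the flat values can be given as an interval. The 95% interval of the fitted log2 change lay wholly within 0.3 of 0 for 41 of the 45 rises and 6 of the 8 falls, and all bounds lay between -0.34 and 0.34. Its median half-width was 0.113 for rises and 0.20 for falls, wider than the limit of 0.1, so that a change of that size was not detectable in many single genes. These intervals are centred on values chosen to be near 0. In pairs of succinylacetone and control libraries set aside from the choice (16 pairs), the genes chosen as rises had a median log2 ratio of 0.03 (-0.06 to 0.08), and those chosen as falls one of 0.03 (-0.11 to 0.19). The size of the ratio, without sign, had a median of 0.107 for genes chosen as rises, 0.120 for those chosen as falls and 0.147 for all genes. All genes include those that moved with succinylacetone, so any set chosen as flat tends to a smaller ratio. Flat genes as a whole were not read in this way, so nothing is read from the difference.

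The levels in the succinylacetone experiment were set beside both siRNA groups. Summed over the 45 rises, control held 6985 ± 151 and succinylacetone 7021 ± 97.3 CPM (SD, n = 4 each), scrambled siRNA 5855 ± 65.7 (SD, n = 4) and FLVCR2 siRNA 7511 ± 54.8 CPM (SD, n = 3). The order of the siRNA groups in this sum is fixed by the choice, and choosing genes low in the scrambled libraries favours higher values elsewhere. Gene by gene, the control mean lay between the siRNA groups for 28 rises, above both for 11 and below both for 6. For the falls these counts were 3, 2 and 3, and over all 9727 genes they were 1916, 3003 and 4808. The rule requires a gap between the siRNA groups, which makes a place between them more likely. Against a scrambled library left out of the choice, the control mean of genes chosen as rises was higher by a median log2 of 0.22 (0.10 to 0.28), where all genes gave -0.03. For genes chosen as falls this value was -0.01 (-0.15 to 0.13). Control and scrambled siRNA belong to different experiments, so the siRNA procedure and the experiment cannot be told apart.

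The 45 rises showed little common variation between replicates. Over 990 pairs of rising genes, Pearson r was taken between deviations from the group means of log2(CPM + 1). Its median was 0.04 in the 7 libraries of the siRNA experiment, against 0.06 for pairs among 1946 sampled genes. These were sampled from all genes with a mean CPM of 5 or more and not matched to the rises in level. The chosen genes were not removed before sampling. In the 8 libraries of the other experiment the values were 0.12 and 0.09. Library depth and composition are shared by all genes of a library, and these values are a description. In the control libraries the rises had a median coefficient of variation of 5.30% against 6.24% for all genes. With succinylacetone these values were 5.60% and 5.86%. The rule did not use this spread directly, but flat means and separated siRNA groups favour precisely measured genes. The rises also had a higher median level, 46.6 against 36.6 CPM. Nothing is therefore read from the difference in variation.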

How the data were processed

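PolyA RNA of bovine retinal endothelial cells was counted in 15 libraries. The authors deposited 1 table per experiment of raw whole-number counts, with 1 row per Ensembl gene ID. The submitters' processing notes name featureCounts and DESeq2, and the builds hg38 and ARS-UCD1.2 are named without a role. Settings of the aligner, the annotation release and strand handling are not stated, so genes that overlap, lie antisense or have near-identical copies may share reads. Groups and replicate numbers came from the sample titles.

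CPM was the count over the library total times 1000000. The members, lists and named IDs were chosen with earlier results of these data known. The printed IDs are, in each direction, the largest change and the highest level. Each treatment was fitted against its own control with edgeR 4.0.16 in R 4.3.3 (TMM, filterByExpr, robust quasi-likelihood F test); the standard error was the absolute log2 change over the square root of F. Scripts were tested on simulated data. Chi-square over degrees of freedom between replicates was 3.75 to 46.2 (1 is sampling noise), so no pair of libraries was merged. Alternatives were other scalings, thresholds and filters, DESeq2 1.42.0, the replicate block and each library left out. The division of set-aside values by level was added after seeing the data. Counts of reads without molecular identifiers limit the precision, and intervals cover the spread between these libraries only.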

Additional observations from a re-analysis of the deposited data

Results flagged for a closer look

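In 3 of 18 groups of 4 values, 1 library stood apart from the other 3, a mark that chance gives in about 1 group in 20. ENSBTAG00000050974 stood at 7.01 CPM in scrambled siRNA replicate 2, against 5.60 to 5.80 CPM in the others; that library is the one nearest to the FLVCR2 siRNA group. The summed level of the 45 rising genes was 6761 CPM in control replicate 3, against 7041 to 7090 CPM in the other control libraries. The summed level of the 8 falling genes was 283.6 CPM in succinylacetone replicate 4, against 297 to 299 CPM in the others.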

How the results depend on the processing

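The number of rises was 39 to 46 under other scalings and log means, 46 to 64 with 1 library left out, and 58 or 32 with a floor of 1 or 10 CPM. It was 137 or 13 with an siRNA limit of 0.2 or 0.4, and 26 or 93 with a succinylacetone limit of 0.05 or 0.2. The number of falls was 8 to 12 under other scalings, 24 or 5 with a floor of 1 or 10 CPM, 33 or 1 with the siRNA limits and 5 or 20 with the succinylacetone limits. With 1 library left out it ran from 7 to 35: it was 35 without FLVCR2 siRNA replicate 3, 26 without scrambled siRNA replicate 2, 14 without FLVCR2 siRNA replicate 2 and 13 without replicate 1. Looser limits admit more genes by construction, and fewer libraries in the siRNA groups ease their separation; leaving out a control or succinylacetone library shifts only a mean. Without the libraries labelled siFLVCR3 and siFLVCR4, an alternative chosen after seeing the data, 102 genes rose and 102 fell, among them 33 of the 45 rises and 6 of the 8 falls. With each of the 15 libraries left out in turn, 20 of the 45 rises and 1 of the 8 falls met the rule every time. The values in libraries set aside moved by less than their spread over pairs under TMM scaling and a floor of 1 CPM. Over all genes, edgeR called 231 with the siRNA, 385 with no low-count filter, and 84 (without FLVCR2 siRNA replicate 2) to 217 with 1 library left out, 150 of them without scrambled siRNA replicate 3; the cause was not tested. With succinylacetone it called 3736, and 2987 to 3658 with 1 library left out. The replicate block gave 277 and 3837 calls and, among the members, 30 rises and 3 falls. The labels do not say what a replicate number shares; deviations of same-numbered libraries correlated at -0.01 to 0.02 in the siRNA experiment and -0.01 to 0.13 in the other, and the best match carried the same number for 0 of 3 and 2 of 4 treated libraries. Gene lists and markers were not run because the IDs have no symbols. Depth limits the weakly expressed genes, with as few as 86 reads in a library.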
